A study of Mus musculus with 50 samples.

Results

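The H3K27me2 ChIP-seq lists of mouse embryonic stem cells (ESCs) with and without *Ezh2* were compared, as regions deposited by the authors for E14 wild-type (WT) and *Ezh2* KO cells. Members were all regions of both lists on the 19 chromosomes that both lists name, which are all autosomes but chromosome 8, and X. They came to 455433 regions, 270131 in WT and 185302 in *Ezh2* KO, of 1419011 H3K27me2 regions in all 4 lines of the series. Both lines are E14 ESCs grown in 2i/LIF medium with serum. *Ezh2* KO carries a CRISPR/Cas9 macrodeletion of the *Ezh2* gene, screened as a clone, and keeps *Ezh1*. An *Ezh1/2* dKO line, which lacks both genes, and an *Ezh2* Y726D line, in which catalytically inactive EZH2 was made in *Ezh1* KO cells, gave the background of lines without PRC2 activity. Each line has 1 H3K27me2 library, so every comparison of regions is a description without a test or a replicate error.

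PRC2 is the Polycomb complex that methylates histone H3 at lysine 27, with EZH2 or EZH1 as its catalytic subunit and SUZ12 as a core subunit. In WT ESCs H3K27me3 sits at CpG-rich promoters of silent developmental genes, H3K27me2 is abundant and broadly spread between the other forms, and H3K27me1 lies in bodies of active genes. EZH1 is known as the weaker methyltransferase of the pair, and in *Ezh2* KO cells it is the enzyme that remains.

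The labels were checked on RNA. *Ezh2* had 597.6 and 545.9 normalised read counts in the 2 WT libraries and 1.05 and 0.968 in the 2 *Ezh2* KO libraries, so the groups did not overlap. *Ezh1* had 226.8 and 377.4 in WT, against 372.2 and 378.3 in *Ezh2* KO. All 10 ESC markers had at least 100 counts in each of the 4 libraries. Of 12 markers of differentiated cells, 7 stayed under 10 counts in both WT libraries and 8 in both *Ezh2* KO libraries, and their summed level was 126.1 to 198.8 in WT and 172.2 to 185.1 in *Ezh2* KO. *Krt18*, an epithelial keratin, had 56.0 and 50.1 counts in WT, against 133.8 and 98.7 in *Ezh2* KO. *T* had 12.01 and 11.6, against 0 and 2.90, and *Pax6* had 18.7 and 14.4, against 13.6 and 3.87. The groups of these genes did not overlap, nor did those of *Sox1* and *Col1a2*, which had very few counts. The share of such genes over all genes was not computed. With 2 libraries per line, these marker values are therefore not read as a difference between the lines.

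Example stretches from each list are printed below. A region is a broad stretch called over background. The study's methods name a p cut-off of 0.1 and its reporting form a stricter one, and the lowest −log10 p in these lists was 1.0006. The peaks used below, of SUZ12, H3K27me3 and H3K27 acetylation, all had a −log10 p of at least 10.0007. A place outside those peaks can therefore hold weaker signal. A region's strength is the −log10 p the caller wrote for it, and a strong block is a part of it that passed the caller's stricter limit, whose value is not given in the sources used here for these lists. The windows below are 200 bases at the centre of regions among the strongest of each list whose centre lay outside exons, on the plus strand of mm9, with CpG in capitals.
Ezh2 KO, Phox2a intron, chr7:108967291-108967490: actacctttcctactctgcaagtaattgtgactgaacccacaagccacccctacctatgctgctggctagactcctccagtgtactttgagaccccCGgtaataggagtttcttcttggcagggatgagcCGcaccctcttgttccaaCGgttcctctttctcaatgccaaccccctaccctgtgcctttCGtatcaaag
Ezh2 KO, near Nkx1-1, chr5:33804684-33804883: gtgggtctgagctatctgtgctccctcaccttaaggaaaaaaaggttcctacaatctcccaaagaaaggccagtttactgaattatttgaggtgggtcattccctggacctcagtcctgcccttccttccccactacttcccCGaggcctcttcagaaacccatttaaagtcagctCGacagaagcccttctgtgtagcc
WT, Mid1 intron, chrX:166435498-166435697: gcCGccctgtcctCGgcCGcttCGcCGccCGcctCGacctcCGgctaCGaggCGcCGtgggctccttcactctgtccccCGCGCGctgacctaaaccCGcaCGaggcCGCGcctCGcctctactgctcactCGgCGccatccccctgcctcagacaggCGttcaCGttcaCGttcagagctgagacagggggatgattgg
WT, near Sfi1, chr11:3027226-3027425: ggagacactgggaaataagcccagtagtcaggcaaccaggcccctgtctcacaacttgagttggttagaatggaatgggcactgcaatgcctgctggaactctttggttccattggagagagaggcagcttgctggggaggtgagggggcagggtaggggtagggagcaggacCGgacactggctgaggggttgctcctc

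Both *Ezh2* KO windows lay in regions that held WT SUZ12 peaks. *Phox2a* encodes a homeobox factor of autonomic neurons, and its intron window, 564 bases from the start site, lay wholly inside a strong block and a WT SUZ12 peak and held 4 CpG. The window near *Nkx1-1*, a homeobox gene 28058 bases away, was intergenic, held 2 CpG, and lay in a strong block outside SUZ12. Neither window was in a WT region, but *Ezh1/2* dKO regions covered 78% of the *Phox2a* window and all of the window near *Nkx1-1*. The *Mid1* window of WT, with 24 CpG and 69.5% G and C, lay inside a WT SUZ12 peak, and the window near *Sfi1* did not. The *Mid1* window and the intergenic window 4427 bases from *Sfi1*, with 1 CpG, were likewise covered by regions of *Ezh1/2* dKO cells. The strongest region of each list lay in the same *Mid1* intron on X, with a strength of 18.4 in *Ezh2* KO and 8.57 in WT, and these windows are not printed.

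Fewer, wider and stronger H3K27me2 regions were listed in *Ezh2* KO than in WT. WT had 1.46 times as many regions, yet they covered 355.6 Mb, against 405.3 Mb in *Ezh2* KO. This was 14.6% of the 2431 Mb of sequenced bases on these chromosomes in WT and 16.7% in *Ezh2* KO. The *Ezh1/2* dKO list covered 25.6% and the *Ezh2* Y726D list 25.1%. The lists carry no spike-in scaling and no read numbers, so a region marks local signal over the background the caller used and not the amount of H3K27me2 in the cells. Whether that background came from an input library or from the same library is not given in the sources used here, and the depth behind each list is unknown.

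The WT median width was 863 bp (quartiles 484 and 1594 bp). The *Ezh2* KO median was 1035 bp (quartiles 545 and 2232 bp). The lists parted in their upper ends. The 99th percentile of width reached 7119 bp for WT but 18397 bp for *Ezh2* KO. Regions of at least 10 kb numbered 819 in WT, or 0.303% (95% Wilson interval 0.283 to 0.325), and 5930 in *Ezh2* KO, or 3.20% (3.12 to 3.28). These intervals, like the others below, cover counting error alone. Such wide regions held 2.93% of the listed bases in WT and 26.8% in *Ezh2* KO. Regions of at least 50 kb numbered 1 in WT and 143 in *Ezh2* KO, and none was listed in *Ezh1/2* dKO or *Ezh2* Y726D.

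Strength followed the same order. The median −log10 p was 1.37 in WT and 1.51 in *Ezh2* KO, while the 99th percentile was 2.23 in WT and 5.25 in *Ezh2* KO. A strength of at least 2 was reached by 8121 WT regions, or 3.01% (2.94 to 3.07), and by 25158 *Ezh2* KO regions, or 13.6% (13.4 to 13.7). A strength of at least 5 was reached by 4 WT regions and 2076 *Ezh2* KO regions, and by 64 regions in *Ezh1/2* dKO and 58 in *Ezh2* Y726D. At the median and the 99th percentile WT lay near the lines without PRC2 activity, whose medians were 1.35 and 1.36 and whose 99th percentiles were 2.22 and 2.25. The highest single strengths were in those lines, 56.2 in *Ezh1/2* dKO and 37.2 in *Ezh2* Y726D, against 18.4 in *Ezh2* KO and 8.57 in WT.

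**Figure D1:**
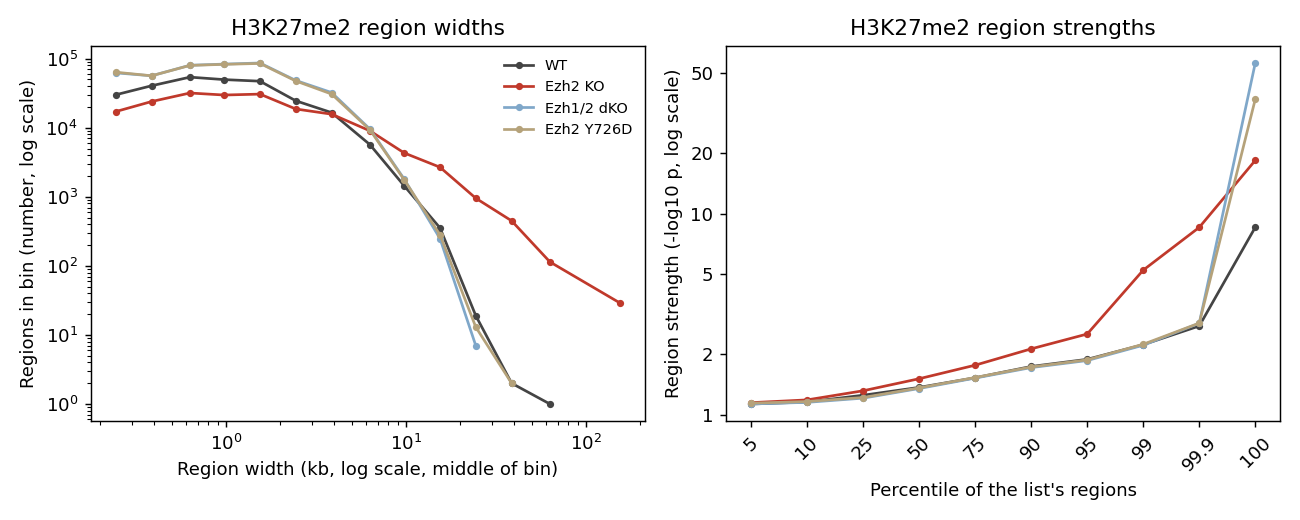
Left, number of H3K27me2 regions in each width bin for the 4 lines, both axes on a log scale, with the point at the middle of the bin. Right, region strength (−log10 p, log scale) at percentiles of each list. WT, *Ezh1/2* dKO and *Ezh2* Y726D run together up to the 99th percentile, at 2.23, 2.22 and 2.25, where *Ezh2* KO reaches 5.25, and only the *Ezh2* KO curve extends far beyond 50 kb.

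Strong blocks, counted only in regions that list a block clear of both ends, separated the lists most. They were present in 105 of the WT regions, or 0.0389% (0.0321 to 0.0470), and in 8204 of the *Ezh2* KO regions, or 4.43% (4.33 to 4.52). WT had 112 blocks with 27.9 kb in all, and *Ezh2* KO had 29103 blocks with 20.5 Mb. The *Ezh1/2* dKO list had 103 blocks and the *Ezh2* Y726D list 99, close to the number in WT. The WT blocks had a median of 229 bp, and the *Ezh2* KO blocks one of 387 bp, where the widest block reached 16395 bp and 1 region held 116 blocks. Within *Ezh2* KO, blocks went with width. They were present in 0.410% (0.354 to 0.475) of regions of 1 to 2 kb, in 23.0% (22.3 to 23.8) of those of 5 to 10 kb and in all 143 of at least 50 kb.

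The lists shared bases at little over the level of the genome. *Ezh2* KO regions covered 20.2% of the WT region bases and 16.7% of all bases. WT regions covered 17.7% of the *Ezh2* KO bases and 14.6% of all bases, so 71.7 Mb were listed in both lines. Any overlap of at least 1 base was found for 33.0% (32.8 to 33.2) of WT regions. For comparison, *Ezh1/2* dKO regions, whose list is longer, covered 43.2% of the WT bases and 44.5% of the *Ezh2* KO bases. Of the bases of *Ezh2* KO strong blocks, 5.49% lay in a WT region and 28.9% in an *Ezh1/2* dKO region.

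Placement along genes differed. Of the WT region bases 50.02% lay in protein-coding genes, against 38.8% of all bases, whereas in *Ezh2* KO the share was 39.6%. Intergenic bases made up 49.98% of the WT list and 60.4% of the *Ezh2* KO list. Exons took 4.30% and introns 45.7% of the bases in WT, and exons took 3.71% and introns 35.9% in *Ezh2* KO. Bases listed in WT alone were genic at 52.1%, those listed in both lines at 41.9% and those listed in *Ezh2* KO alone at 39.1%. *Ezh1/2* dKO regions were genic at 37.7%.

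Strong blocks of *Ezh2* KO had a placement of their own. They were genic at 56.0%, exonic at 13.8%, and lay within 5 kb of a start site at 46.1% of their bases, where 7.83% of all bases lie. They had 22.2 CpG per kb and 51.7% G and C, against 8.31 CpG per kb and 41.7% over all bases, and against 10.3 and 10.9 CpG per kb in the whole regions of WT and *Ezh2* KO.

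The other modifications of the same loci were set beside H3K27me2. H3K27me1 regions of the same line covered 28.9% of the WT H3K27me2 bases and 65.5% of those of *Ezh2* KO. *Ezh2* KO H3K27me1 regions covered 20.5% of all bases, and 36.7% of the bases of *Ezh1/2* dKO H3K27me2 regions. H3K27ac, a mark of active promoters and enhancers, was taken from the *Ezh2* KO list, and the WT H3K27ac library of the series was not analysed here. Of its 19.9 Mb, 18.9% lay in WT H3K27me2 regions, 1.16% in *Ezh2* KO regions and 30.4% in *Ezh1/2* dKO regions. Of 29103 *Ezh2* KO strong blocks, 26 overlapped an H3K27ac peak, or 0.0893% (0.0610 to 0.131).

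Sites of PRC2 itself held the clearest difference. Of 5169 WT SUZ12 peaks, 4980 overlapped an *Ezh2* KO H3K27me2 region, or 96.3% (95.8 to 96.8), and 337 overlapped a WT region, or 6.52% (5.88 to 7.23). By bases, *Ezh2* KO regions covered 95.005% of the SUZ12 peaks and WT regions 2.34%. The lines without activity covered 9.78% in *Ezh1/2* dKO and 22.9% in *Ezh2* Y726D. A strong block of *Ezh2* KO was found on 4065 peaks, or 78.6% (77.5 to 79.7), and one of WT on 2 peaks. SUZ12 peaks called in *Ezh2* KO cells were covered at 93.0% in *Ezh2* KO and 0.431% in WT.

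The share of SUZ12 peaks touched varied with the strength of SUZ12 binding. When SUZ12 peaks were put into 5 equal groups by their own −log10 p, WT regions overlapped 10.8% (9.08 to 12.9) of the weakest group and 0.967% (0.526 to 1.77) of the strongest. *Ezh2* KO strong blocks overlapped 61.9% (58.9 to 64.8) of the weakest and 91.8% (89.9 to 93.3) of the strongest. By bases, blocks covered 52.0% of the weakest, 72.8% of the next to strongest and 63.4% of the strongest group. The share touched was also higher in the strongest group for *Ezh1/2* dKO, at 39.7% against 17.1%, and for *Ezh2* Y726D, at 62.0% against 32.9%, while their base coverage there was 9.56% against 10.4% and 22.9% against 24.5%. The *Ezh2* KO region under a peak had a median width of 9474 bp in the weakest group and 17661 bp in the strongest, with median strengths of 4.84 and 6.24.

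*Ezh2* KO coverage was lower with distance from SUZ12. It was 90.4% within 0.5 kb of a peak, 69.2% at 2 to 3 kb, 46.2% at 5 to 7.5 kb and 22.5% at 50 to 100 kb. WT coverage ran the other way, from 4.54% within 0.5 kb to 15.2% at 2 to 3 kb and 20.9% at 50 to 100 kb. Strong blocks were nearer to the peaks, at 51.2% within 0.5 kb, 13.5% at 2 to 3 kb and 0.645% at 50 to 100 kb. H3K27me1 of *Ezh2* KO was sparse inside the peaks, at 9.89%, and most frequent at 1 to 2 kb, at 51.6%. Its H3K27me3 peaks covered 85.3% of the bases in SUZ12 peaks and 4.49% at 2 to 3 kb. They were called at a stricter limit than the regions, so their reach cannot be set beside that of H3K27me2.

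**Figure D2:**
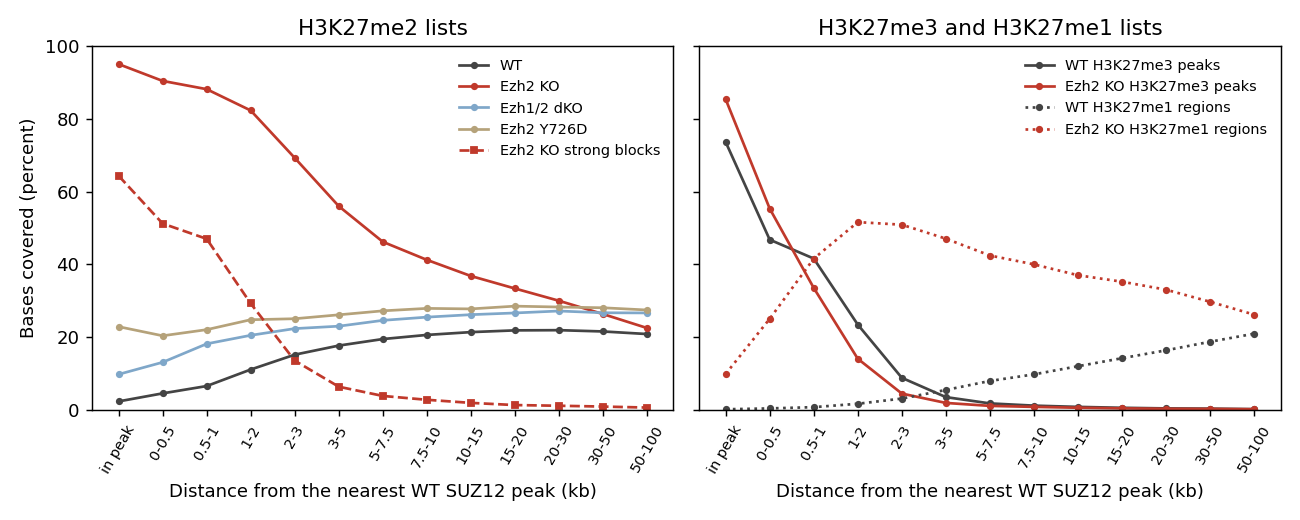
Percent of bases covered (y axis) against distance from the nearest WT SUZ12 peak in kb (x axis) for H3K27me2 regions of 4 lines and strong blocks of *Ezh2* KO (left) and for H3K27me3 peaks and H3K27me1 regions of WT and *Ezh2* KO (right). *Ezh2* KO H3K27me2 starts at 95.005% inside peaks and reaches 22.5% at 50 to 100 kb, while WT starts at 2.34% and reaches 20.9%.

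H3K27me3 sites of WT cells were then followed. Of 16143 WT H3K27me3 peaks, 8025 overlapped an H3K27me3 peak of *Ezh2* KO and 8118 did not. *Ezh2* KO H3K27me2 regions overlapped 99.8% (99.6 to 99.8) of those kept and 98.1% (97.7 to 98.3) of those not called in *Ezh2* KO. The classes differed in strong blocks, which overlapped 94.3% (93.8 to 94.8) of the kept peaks and 54.3% (53.2 to 55.4) of the others. WT H3K27me2 regions overlapped 2.39% (2.08 to 2.75) of the kept peaks and 11.4% (10.8 to 12.2) of the others. Peaks not called in *Ezh2* KO had a lower median −log10 p in WT, 12.1 against 16.2 for the kept peaks, and its part in these shares was not tested. Conversely, 15371 strong blocks, or 52.8% (52.2 to 53.4), overlapped no H3K27me3 peak of either line. H3K27me3 peaks start at a −log10 p of 10.0007 and H3K27me2 regions at 1.0006, so lack of a peak is not lack of H3K27me3.

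Genes were grouped by PRC2 and by expression. SUZ12-bound genes had a WT SUZ12 peak no further than 5 kb from the start, and the others were put into 3 equal groups by mean WT normalised count, which is not scaled to gene length. Over the 2885 SUZ12-bound genes, promoter windows, which reach 2.5 kb up- and downstream of the start, were covered at 8.72% by WT regions and at 83.5% by *Ezh2* KO regions. *Ezh1/2* dKO regions covered 14.7% of these windows and *Ezh2* Y726D regions 21.9%. An *Ezh2* KO strong block lay in the window of 2490 SUZ12-bound genes, or 86.3% (85.0 to 87.5), where 17.7% of all 21132 protein-coding genes had one. Over all genes, an *Ezh2* KO region of any strength touched the window of 43.7%, and a WT region that of 56.7%.

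Gene bodies of unbound genes split by expression. In the low-expression group, of at most 34.6 counts, regions covered 16.6% of the body bases in WT and 24.8% in *Ezh2* KO. With spike-in scaling, the paper reports that H3K27me2 was completely lost inside poorly expressed genes in *Ezh2* KO. The region lists are not scaled, so their coverage is not a gain in the amount of the mark. Middle-group bodies were covered at 27.6% by WT regions and at 4.54% by *Ezh2* KO regions. In the high-expression group, of at least 314.3 counts, WT regions held 16.6% of the bases and *Ezh2* KO regions 1.30%. *Ezh1/2* dKO regions covered 28.8%, 20.7% and 14.3% of the same bodies. No *Ezh2* KO region touched the body of 93.5% of the high-expression genes, and no WT region touched 42.2% of them. Nearly all of the WT lead in high-expression genes came from regions of strength under 2. With regions of strength 2 or more, coverage there was 0.690% in WT and 0.540% in *Ezh2* KO.

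**Figure D3:**
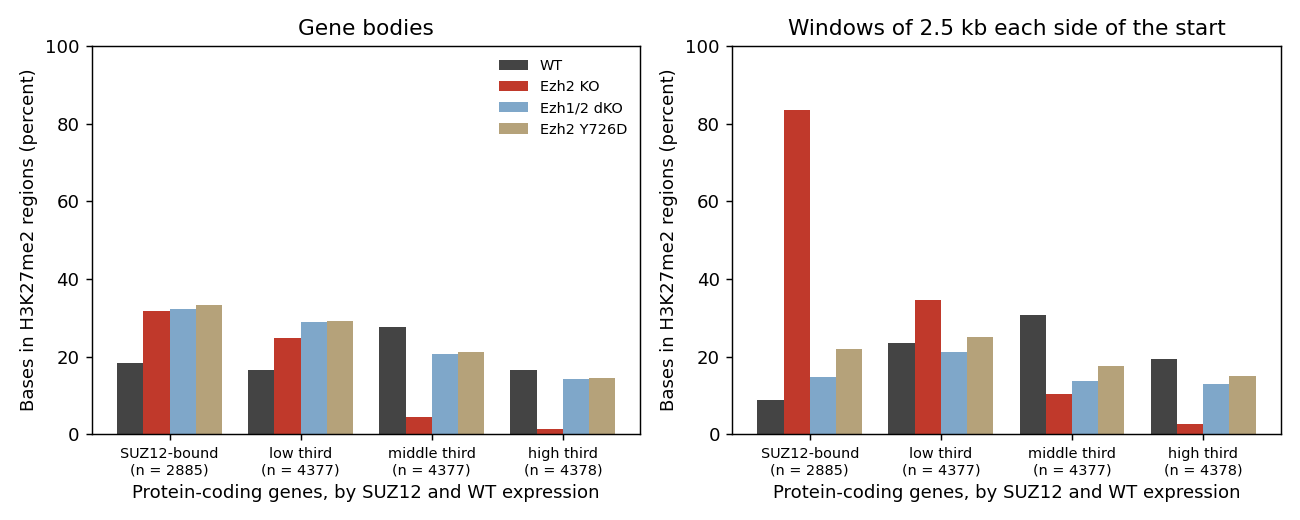
Percent of bases in H3K27me2 regions (y axis, bars from 0) in gene bodies (left) and promoter windows, 2.5 kb up- and downstream of the start (right), for 4 classes of protein-coding genes and 4 lines, 1 library each. *Ezh2* KO stands at 83.5% in the windows of SUZ12-bound genes and at 1.30% in the bodies of high-expression genes.

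Along genes of at least 5 kb, the shapes differed too. In SUZ12-bound genes the mean *Ezh2* KO coverage was 82.1% in the last 0.5 kb before the start and 39.1% in the last of 20 bins of the body, whereas WT went from 5.67% to 25.3%. In the middle group WT coverage was 16.9% just before the start and 26.3% in the opening bin of the body, against 7.74% and 9.23% in *Ezh2* KO.

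**Figure D4:**
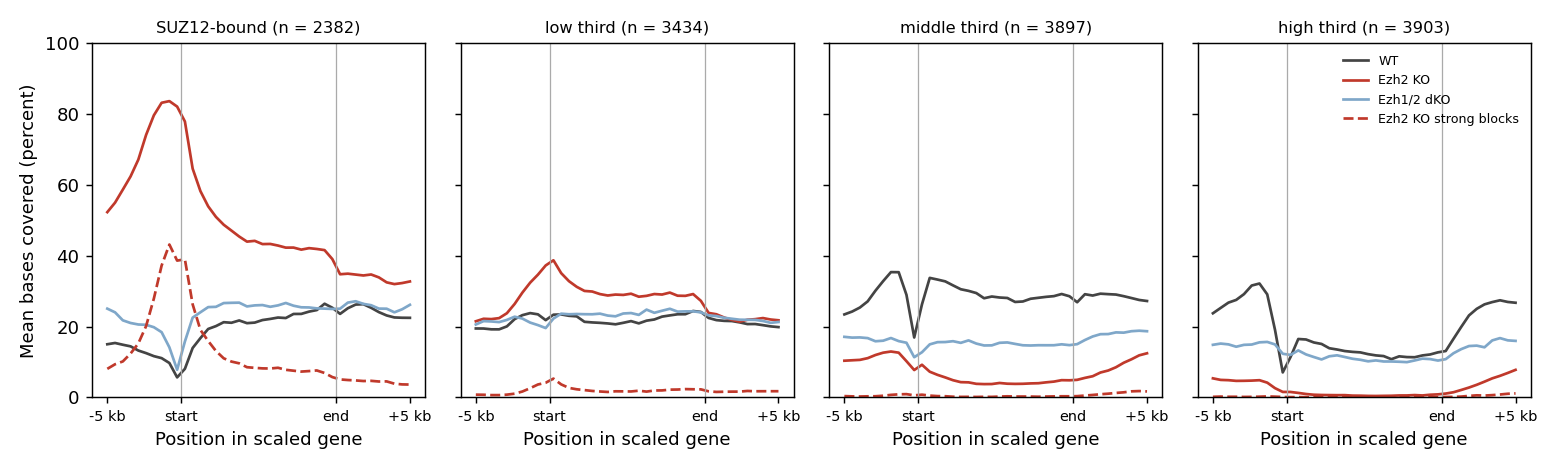
Mean percent of bases covered (y axis) along genes of at least 5 kb scaled to 20 bins, with 5 kb on each side in 0.5 kb bins, for SUZ12-bound genes and the low, middle and high-expression groups. The *Ezh2* KO curve is highest upstream of the start of SUZ12-bound genes, at 83.7% in the bin before the last, and lies under the WT curve in the middle and high groups.

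Gene by gene, 4358 of 21132 protein-coding genes, 20.6%, had at least 20 percentage points more of the body covered in *Ezh2* KO, and 5049, 23.9%, had at least 20 points less. These shares are the background for the lists below. With regions of strength 2 or more, 3579 genes were higher and 321 lower. RNA values were matched for 2955 of the higher and 4633 of the lower genes. The matched higher genes had low RNA in every library, with medians of 2.67 and 2.89 counts in WT and 2.09 and 1.94 in *Ezh2* KO. The matched lower genes had medians of 124.1 and 136.7 in WT, against 133.8 and 144.2 in *Ezh2* KO. The medians over all matched genes were 84.0 and 90.5 in WT, against 87.8 and 93.9 in *Ezh2* KO.

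Polycomb targets were mostly covered more in *Ezh2* KO than in WT. Bodies of the 2885 SUZ12-bound genes were covered at 18.3% in WT and 31.8% in *Ezh2* KO. The lines without PRC2 activity covered as much, 32.3% in *Ezh1/2* dKO and 33.3% in *Ezh2* Y726D. Of these genes 1683, or 58.3%, were higher in *Ezh2* KO than in WT by at least 20 points, and 397, or 13.8%, were lower. All 15 Polycomb loci drawn by the study, which chose them on these cells, were higher in *Ezh2* KO by at least 20 points, and all 15 had a strong block at the start. Their median difference was 95.6 points, where the median over all genes was 0. *Cdx2*, a caudal homeobox regulator of trophectoderm and gut, had 0% of its body in WT regions, 100% in *Ezh2* KO regions and 25.5% in *Ezh1/2* dKO regions, and 90.1% lay in strong blocks. *Wnt5a*, a secreted Wnt ligand, stood at 0% in WT and 88.0% in *Ezh2* KO. *Fgfr3*, a receptor for fibroblast growth factors, stood at 0% and 95.6%. The paired-box gene *Pax9*, needed for teeth and pharyngeal pouches, stood at 0% and 71.8%. The lowest values in *Ezh2* KO were 49.8% for *Hmx3*, a homeobox gene of the inner ear, and 62.2% for *Mmp25*, a membrane-bound metalloprotease, the latter with 16.2% in WT.

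Hox genes, which pattern the body axis, were higher in 37 of 39 cases, and 27 lay practically whole in *Ezh2* KO regions. *Hoxa7*, *Hoxa10* and *Hoxa11* were each at 0% in WT and 100% in *Ezh2* KO, with 88.7%, 45.2% and 45.3% of the body in strong blocks. *Hoxd9* had 26.4% in strong blocks and *Hoxb7* 19.3%. These values share neighbours, since adjacent Hox genes lie in common regions.

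All 11 developmental regulators on these chromosomes were higher, and all are SUZ12-bound. *Sox17*, a factor of endoderm, went from 0% in WT to 100% in *Ezh2* KO with 91.1% in strong blocks. *Foxa2*, another endoderm factor, had 0% and 100%. *Gata4* and *Gata6*, which specify primitive endoderm and heart, stood at 8.60% and 14.96% before and at 55.7% and 63.6% without *Ezh2*. *T* (brachyury), the mesoderm factor, had 19.8% and 100%, and the neural regulators *Pax6* and *Neurog2* had 20.2% and 0% in WT, against 61.4% and 100% in *Ezh2* KO. The promoter window of *Pax6* lay wholly in a strong block. *Olig2*, of motor neurons and oligodendrocytes, had the smallest *Ezh2* KO value, 34.5%, with no block at its start. The *Ezh2* Y726D list, without PRC2 activity, covered more of this body, 52.7%, and the *Ezh1/2* dKO list 25.6%. The *Olig2* value is therefore not read as a gain of the mark. Over the bodies of all 11 together, *Ezh2* Y726D regions held 24.4% of the bases and *Ezh1/2* dKO regions 22.9%, against 68.3% for *Ezh2* KO.

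Protocadherins, adhesion molecules that neurons express from gene clusters, were higher in 29 of 36 cases and lower in none. Their genes overlap within clusters, so the cases share regions. Olfactory receptors were higher in 174 of 1108 cases, 15.7% (13.7 to 17.96), and lower in 94, 8.48% (6.98 to 10.3), both under the shares over all genes, and 12 had a strong block at the start.

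Most of the active genes listed had no region in either line. Of 10 housekeeping genes none had an *Ezh2* KO region in its body, and 8 had no WT region. Over all protein-coding genes, 54.8% had no *Ezh2* KO region in the body and 35.6% no WT region. In the high-expression group these shares were 93.5% and 42.2%. Median length was 8.29 kb for the housekeeping and 3.24 kb for the ribosomal protein genes, against 15.5 kb over all genes. *Ldha*, lactate dehydrogenase, had 23.2% in WT, with all of its promoter window covered, and 0% in *Ezh2* KO. *Eef2*, the translation elongation factor, had 5.39% and 0%. *Actb*, *Gapdh* and *Npm1* were at 0% in both lines. Of 77 ribosomal protein genes, 2 were lower by at least 20 points, none was higher, and 74 had no WT region.

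Of 9 pluripotency genes measured, 8 had no *Ezh2* KO region in the body, where 54.8% of all protein-coding genes had none. All but *Tbx3* were in the high-expression group, where 93.5% of genes had none. The median length of the 9 was 10.6 kb, against 15.5 kb over all genes. Among the 8 were *Pou5f1*, *Nanog* and *Sox2*, at 0% in both lines. *Klf4* had 25.9% in WT and 0% in *Ezh2* KO. The exception was *Esrrb*, an orphan nuclear receptor of naive ESCs with 2082 and 2307 counts in WT and 2497 and 2280 in *Ezh2* KO. It had 19.2% of its body covered in WT and 40.8% in *Ezh2* KO, and its annotated promoter window went from 0% to 100%. *Tbx3*, a T-box factor bound by SUZ12 in WT, had 0% of its body in both lines.

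Very long genes formed a further class. None of 13 long genes fixed as silent in ESCs differed by 20 points in either direction, and the body bases were covered at 6.04% in WT and 5.74% in *Ezh2* KO, against 26.8% in *Ezh1/2* dKO. The list is not uniformly silent, since *Dmd*, the dystrophin gene on X, had 591 and 872.3 counts in WT. Their starts differed from their bodies. The promoter windows were covered at 7.05% in WT and 60.4% in *Ezh2* KO, and 7 of 13 held a strong block. *Lrp1b*, a lipoprotein receptor gene of 2.06 Mb, had 3.37% of its body covered in WT and 1.67% in *Ezh2* KO, while its promoter window went from 0% to 100%.

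Some genes lay at opposite ends in the lines. Among 12770 genes of at least 10 kb, 64 had practically no base in WT regions and practically all in *Ezh2* KO regions. Those with the largest share in strong blocks were *Sh2d5* (91.2%), *Tnfaip2* (89.7%), *1200009I06Rik* (87.4%), *Wnt10a* (86.2%), a Wnt ligand of skin and teeth, and *Scarf2* (85.1%). RNA of these genes was at most 8.004 counts in any of the 4 libraries. *Tnfaip2* and *1200009I06Rik* are neighbours on chromosome 12.

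Among the same genes of at least 10 kb, the 5 largest differences in the other direction were in genes with no *Ezh2* KO region in the body. *Thbs3*, a thrombospondin of the matrix, had 92.4% of its body in WT regions, *S1pr2*, a sphingosine phosphate receptor, 92.1%, *Ifngr2*, a chain of the interferon gamma receptor, 91.7%, *Vasn* 91.4% and *Csrnp2* 90.8%. *Ezh1/2* dKO regions covered 12.9%, 12.5%, 38.9%, 9.998% and 27.7% of these bodies. *S1pr2* had 346.8 and 301.4 counts in WT and 283.3 and 227.4 in *Ezh2* KO, and *Thbs3* had 41.4 and 20.2 in WT, against 26.1 and 24.2 in *Ezh2* KO.

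The gene of the removed enzyme was among the uncovered ones. *Ezh2* had 10.2% of its body in WT regions and 0% in *Ezh2* KO, where the gene is deleted, so that 0 cannot be read as a level of the mark. *Ezh1* had 4.86% in WT and 21.9% in *Ezh2* KO. Regions also covered 25.1% of it in *Ezh1/2* dKO and 22.4% in *Ezh2* Y726D, although *Ezh1* was deleted in both lines. The *Ezh2* KO value is therefore not read as a gain of the mark.

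Wide regions held SUZ12 sites more often in *Ezh2* KO than in WT. Of the 5930 *Ezh2* KO regions of at least 10 kb, 1623 overlapped a WT SUZ12 peak, or 27.4% (26.2 to 28.5), and of the 819 WT regions 7 did, or 0.855% (0.415 to 1.75). Among regions of all widths, 3330 of 185302 in *Ezh2* KO and 322 of 270131 in WT did. The lists thus differed over all widths together. Wider regions can touch more peaks, and length was not allowed for. Wide WT regions were genic at 65.4% of bases and wide *Ezh2* KO regions at 47.8%. *Ezh2* KO regions covered 9.82% of the bases of wide WT regions, against 16.7% of all bases, and WT regions covered 12.9% of those of wide *Ezh2* KO regions, close to their 14.6% of all bases. The 143 *Ezh2* KO regions of at least 50 kb covered 10.05 Mb. Of them 96 overlapped a WT SUZ12 peak, and 116 a protein-coding gene. The shares expected for stretches of this length were not computed. In these 143 regions other lists were measured by bases. WT H3K27me2 covered 8.95% of the bases, *Ezh1/2* dKO H3K27me2 32.4%, WT H3K27me3 15.05% and *Ezh2* KO H3K27me3 18.6%.

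The widest *Ezh2* KO region, chr7:150484647-150691413, spanned 206.8 kb from inside *Kcnq1*, a potassium channel gene, over *Cdkn1c*, which encodes a cyclin-dependent kinase inhibitor, and *Slc22a18* to *Phlda2*, in a known imprinted domain. It held 116 strong blocks with 58.0% of its length. WT had 17 regions there with 7.55% of its length, of strength up to 2.23, and *Ezh1/2* dKO 52 regions with 46.8%, of strength up to 1.77. H3K27me3 peaks covered 23.1% of it in WT and 41.7% in *Ezh2* KO.

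**Figure D5:**
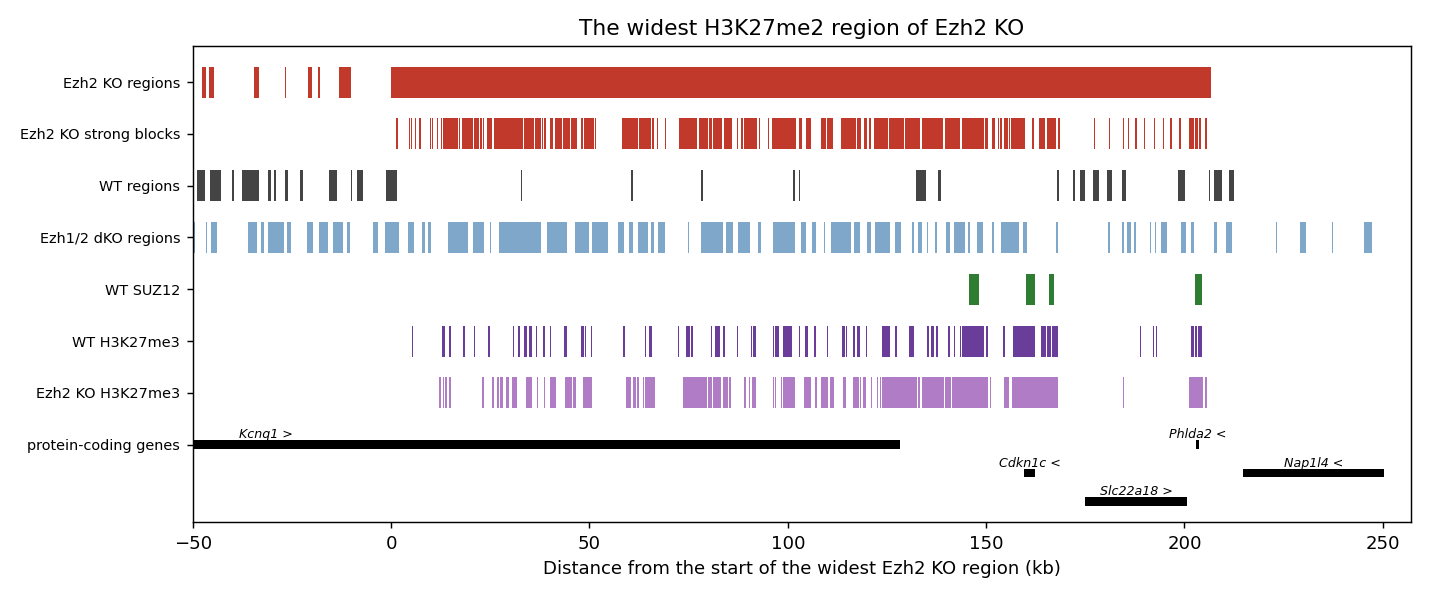
Map of the widest *Ezh2* KO H3K27me2 region, with distance from its start in kb on the x axis and 1 row per list, and with gene direction given by arrowheads. A continuous *Ezh2* KO region of 206.8 kb, filled to 58.0% by strong blocks, lies where WT has 17 short regions.

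The next widest lay at *Trio* (chr15:27902353-28048415, 146.1 kb), at *Adra2c* and *Hmx1* (chr5:35588221-35733695, 145.5 kb), at *Aspg* and *Kif26a* (chr12:113351969-113495444, 143.5 kb), at *Efnb1* (chrX:96319838-96451917, 132.1 kb) and at *Hrh1* (chr6:114311835-114441364, 129.5 kb). Each held at least 29 strong blocks, and WT regions covered 0.391% to 21.6% of their length. Like the widest region above, they were chosen by their *Ezh2* KO width, so lower WT coverage follows in part from the choice. At *Efnb1*, an ephrin gene, H3K27me3 covered 0.235% in WT and 22.3% in *Ezh2* KO. The widest WT regions lay on chromosome 17, in *Dnahc8* (chr17:30963755-31017264, 53.5 kb) and at *Btbd9* (chr17:30588921-30636639, 47.7 kb). *Ezh2* KO regions covered 1.14% and 1.58% of them, and *Ezh1/2* dKO regions 73.8% and 82.0%. These regions were in turn chosen by their WT width. WT H3K27me1 covered 96.0% of the region in *Dnahc8*, an axonemal dynein gene.

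The strongest *Ezh2* KO regions after *Mid1* were at *Phox2a* (strength 15.002), at *Gm996* (13.6), beside *Nkx1-1* (13.05, 54.4 kb with 80.0% in strong blocks) and beside *Gm1979* (13.05). Each of these held a WT SUZ12 peak, and the strength in *Ezh1/2* dKO was at most 1.73 at any of them. They were chosen by their *Ezh2* KO strength, so lower strengths in other lines follow in part from the choice. At *Mid1*, which straddles the pseudoautosomal boundary of X, *Ezh2* Y726D also had a region, of strength 2.75, and *Ezh1/2* dKO one of 1.27. The strongest WT regions were the 2 in *Mid1* (8.57 and 7.92), one near *Sfi1* (6.91), an intergenic one on chromosome 18 (6.52) and one in *Pcsk4* (4.86). All 5 overlapped a region of each of the other 3 lines, and 4 of them had a strong block as counted here.

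Chromosomes were unevenly covered. WT regions covered 0.416% of X and 7.26% of chromosome 11, against 13.7% to 19.4% of the other 17 chromosomes. *Ezh2* KO covered 2.39% of X and 16.9% of chromosome 11, against 13.5% to 22.6% elsewhere. *Ezh1/2* dKO and *Ezh2* Y726D also had less of chromosome 11, with 11.6% and 12.7%, and of X, with 3.83% and 3.47%. *Ezh2* Y726D covered 13.97% of chromosome 12, where *Ezh1/2* dKO covered 26.8%. Without chromosomes 11 and X, an alternative chosen after the data were seen, 3817 genes were higher and 4829 lower by at least 20 points, and *Ezh2* KO covered 95.1% of SUZ12 peak bases.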

How the data were processed

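ChIP-seq of histone modifications, but not of SUZ12, used chromatin supplemented with Drosophila chromatin as a spike-in. Unique reads were placed on mm9 by the authors (Bowtie), cleared of duplicates (Picard) and passed to MACS2, and the spike-in does not enter the lists. The deposited lists give −log10 p-values as region strength and a fold enrichment as a ratio, and 1 file was used per line and mark. RNA-seq values are the authors' normalised counts, a signal already divided by size factors, with 2 libraries per line, used here for levels and gene groups without a test.

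Regions were intersected base by base (Python 3.11.15, numpy 2.4.6, pandas 2.3.3) and tested on simulated intervals. Chromosome 8 was not compared. Strong blocks are blocks over 1 bp in regions that list a block clear of both ends. A region filled by 1 block therefore counts as having none. Genes, starts and exons came from GENCODE vM1 on the same build, with 21132 protein-coding genes, of which 14885 matched the RNA table by symbol and 819 by synonym. *Pkm2* and *Tcfcp2l1* stand for *Pkm* and *Tfcp2l1*. *Sox1*, *Zfp42* and *Csmd1* were not compared.

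The lines, lists and gene lists were chosen with earlier results of these data known. Named were the PRC2 enzymes, members of the gene lists, the 5 genes of at least 10 kb with the largest difference each way (ties by strong block share) and the 5 strongest regions. The widest regions, printed sequences and list members were picked out after values were seen. Alternatives were stricter or wider regions, merging, strong blocks, equal length, *Ezh1/2* dKO bases left out, other gene sets and single RNA libraries.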

Additional observations from a re-analysis of the deposited data

Results flagged for a closer look

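Chromosome 8 is in the *Ezh2* KO list and not in the WT list, so no comparison used it. It was picked out because *Ezh2* KO had 1079 strong H3K27me2 blocks there, against 5 in *Ezh1/2* dKO and 4 in *Ezh2* Y726D. The blocks came to 713.3 kb in *Ezh2* KO, and its 9406 regions on the chromosome had a median width of 980 bp and reached 52335 bp.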

How the results depend on the processing

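Values below are *Ezh2* KO minus WT unless they are counts or shares of WT bases. As deposited, they were 172 bp for median width, 0.14 for median strength, 2.04 points for bases covered, -10.4 for the genic share, 92.7 for SUZ12 peaks, 8.23 for low- and -15.3 for high-expression genes, with 20.2% of WT bases shared and 9407 genes differing by 20 points. With regions of strength 2 or more, leaving strength aside, they were 2978 bp, 6.33, -4.53, 93.6, 10.6 and -0.15 points, 6.25% shared and 3900 genes, 321 of them lower. With strong blocks alone they were 158 bp, 0.84, -6.81, 64.3 and 1.11 points, 2.98% shared and 1096 genes, of which 1095 were higher and 1 lower, and high-expression genes reversed to 0.055 points. Regions of at least 1000 bp gave 397 bp, 0.21 in strength and 3.49 points covered, merging gave 192 bp, and fold in place of −log10 p gave 0.085. Without *Ezh1/2* dKO bases, coverage differed by 0.95, the genic share by -13.0, SUZ12 peaks by 83.5, low genes by 5.01 and high genes by -11.1 points, with 15.3% shared. At equal covered length the genic share, SUZ12 peaks, low and high genes differed by -9.37, 92.5, 5.66 and -15.5 points, with 17.4% shared. The genic share was -10.0035 points with all biotypes and -10.7 with genes extended by 5000 bp, and *Ezh2* KO SUZ12 peaks gave 92.6. With 40 points, 5626 genes differed and 2460 were lower. Leaving out each WT RNA library gave 8.20 to 8.34 for low and -15.9 to -15.5 for high genes. Without chromosomes 11 and X, chosen after seeing the data, the values were 163 bp for width and 1.63, -10.7, 7.49 and -17.1 points for bases covered, genic share, low and high genes, with 20.3% shared. The cause was not tested.

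No paired analysis was possible because each line has 1 H3K27me2 library and no result comes from a test. Read depth is unknown, so the length of a list cannot be set against it.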
